A study of Mus musculus with 3 samples.

Results

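With the exception of Mybpc3, the genes described here encode proteins of the Z-disc and of the titin filament of the cardiac sarcomere. The genes were taken as a fixed list of 9, Actn2, Ldb3, Myoz2, Nebl, Csrp3, Tcap, Ttn, Ankrd1 and Mybpc3. The product of Mybpc3 sits on the thick filament and binds titin. The list and its distance rule were chosen with earlier results of these data known. Shares set beside those of all genes are therefore descriptions and do not test for enrichment. A ChIP-seq peak of the transcription factor NKX2-5 was counted at a gene when its midpoint lay in the gene body or within 50 kb of it, in the GENCODE M1 annotation of the mm9 genome. By this rule 29 of 4418 peaks in the library S1 and 33 of 5441 peaks in the library S4 belonged to the 9 genes. Chromatin had been prepared from fixed hearts of Parkes mouse embryos at E11.5, with no other treatment named, and precipitated with an antibody against NKX2-5, in 2 libraries of the same condition named S1 and S4. A library of Input DNA belongs to the same study and was not analysed here. The study describes S1 and S4 as separate experiments. Genotype, sex, the number of hearts in each library and whether S1 and S4 came from separate pools were not given in the sources used here. No RNA was measured in the files used, so the tissue label could not be checked against marker genes.

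The Z-disc anchors the thin filaments of neighbouring sarcomeres, and alpha-actinin, the product of Actn2, cross-links them there. Titin, the product of Ttn, runs from the Z-disc to the middle of the sarcomere and acts as its molecular spring. NKX2-5 is a homeodomain factor of the early cardiac lineage that binds DNA at sites with the core AAGTG, and the question here is where it lay around the genes of this structure. Each library had its own list of peaks with a score from the peak caller. The score rises with the strength of the evidence against the background of its own library. It was taken to be a log p-value, so a fold or log2 ratio given below compares scores and is not a fold difference in binding. Read numbers were not used, so the depth and the precision of a score are unknown, and a difference in score between the libraries cannot be told apart from a difference in depth. With 1 condition and 2 libraries there was no test between groups, and all values below are descriptions.

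All 9 genes had at least 1 peak in each library. Among 22206 protein-coding genes, 26.3% had an S1 peak and 32.1% had an S4 peak within the same distance. A region was called shared when an S1 peak and an S4 peak overlapped by at least 1 bp. The 9 genes held 21 of the 2546 shared regions, at 8 of the 9 genes, against 15.7% of protein-coding genes with a shared region. Nebl was the gene without one. Its only S1 peak scored 144, near the lowest score of that list (140). Most of these counts fell under stricter settings, for which shares over all genes are not given here. With a score of at least 200, 8 genes had an S1 peak, 9 an S4 peak and 7 a shared region. Within 10 kb the numbers were 8, 8 and 7. Where the named gene had to be the nearest gene they were 7, 8 and 6. Regions are numbered from upstream to downstream of each gene, and a negative distance is upstream of the gene start.

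The sequences below show a selection of the shared regions, at least 1 for each gene that had one. They were chosen so that the places described for each gene can be read. Included is the highest-scoring of the 21 regions, Ankrd1 region 5, which ranked 158 among all 2546 by the lower of both scores. Windows over untranslated exons were left out. Each window spans 100 bp on either side of the midpoint of the bases under both peaks, on mm9, written 5′ to 3′ in the direction of the gene. Capitals mark exact matches to the NKX2-5 core AAGTG or to the core TGACA of the homeodomain factor MEIS. These read CACTT or TGTCA when the match lies on the other strand. The study describes MEIS1 expression in the embryonic heart as low or absent, apart from the distal outflow tract at earlier stages. It also reports MEIS binding in the branchial arches at a part of the NKX2-5 regions. A TGACA match alone does not show that MEIS acted at a region in these hearts.
Actn2 region 1, chr13:12430091-12430291, minus strand: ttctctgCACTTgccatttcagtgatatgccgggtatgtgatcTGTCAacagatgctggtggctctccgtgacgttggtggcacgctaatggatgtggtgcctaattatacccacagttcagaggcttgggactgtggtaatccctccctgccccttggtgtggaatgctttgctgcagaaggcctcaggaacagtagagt
Actn2 region 2, chr13:12412525-12412725, minus strand: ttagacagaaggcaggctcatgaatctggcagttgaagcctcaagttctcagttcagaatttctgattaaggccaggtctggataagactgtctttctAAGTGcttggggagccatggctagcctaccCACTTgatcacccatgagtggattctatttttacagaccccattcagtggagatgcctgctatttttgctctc
Ldb3 region 3, chr14:35387356-35387556, minus strand: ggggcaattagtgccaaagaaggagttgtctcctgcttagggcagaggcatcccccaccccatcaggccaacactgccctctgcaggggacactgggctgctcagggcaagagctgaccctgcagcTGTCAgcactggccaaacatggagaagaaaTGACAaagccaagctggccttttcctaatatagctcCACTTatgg
Myoz2 region 2, chr3:122773958-122774158, minus strand: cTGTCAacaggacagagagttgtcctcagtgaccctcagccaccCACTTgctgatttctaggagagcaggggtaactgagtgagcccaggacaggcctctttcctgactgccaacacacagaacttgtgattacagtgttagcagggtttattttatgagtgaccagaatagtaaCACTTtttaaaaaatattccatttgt
Csrp3 region 2, chr7:56095970-56096170, minus strand: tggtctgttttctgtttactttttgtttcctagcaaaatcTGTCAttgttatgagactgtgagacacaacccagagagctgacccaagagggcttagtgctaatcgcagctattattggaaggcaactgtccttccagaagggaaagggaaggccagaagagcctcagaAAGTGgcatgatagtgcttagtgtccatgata
Tcap region 1, chr11:98235682-98235882, plus strand: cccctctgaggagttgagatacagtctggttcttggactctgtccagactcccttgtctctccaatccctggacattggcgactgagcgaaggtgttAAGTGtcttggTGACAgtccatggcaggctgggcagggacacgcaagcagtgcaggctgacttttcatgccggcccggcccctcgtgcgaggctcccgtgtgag
Ttn region 1, chr2:76819885-76820085, minus strand: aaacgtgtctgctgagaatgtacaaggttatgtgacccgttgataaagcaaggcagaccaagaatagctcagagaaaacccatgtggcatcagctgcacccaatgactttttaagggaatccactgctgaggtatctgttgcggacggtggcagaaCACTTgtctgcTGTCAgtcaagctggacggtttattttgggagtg
Ankrd1 region 1, chr19:36204284-36204484, minus strand: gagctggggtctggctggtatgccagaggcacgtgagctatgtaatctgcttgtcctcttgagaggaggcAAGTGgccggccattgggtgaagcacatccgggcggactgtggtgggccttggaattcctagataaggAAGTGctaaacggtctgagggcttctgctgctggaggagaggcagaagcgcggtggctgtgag
Ankrd1 region 2, chr19:36194340-36194540, minus strand: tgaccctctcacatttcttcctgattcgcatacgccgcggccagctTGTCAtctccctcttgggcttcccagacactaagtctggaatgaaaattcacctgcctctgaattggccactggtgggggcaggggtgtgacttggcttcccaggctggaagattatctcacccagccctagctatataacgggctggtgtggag
Ankrd1 region 5, chr19:36185410-36185610, minus strand: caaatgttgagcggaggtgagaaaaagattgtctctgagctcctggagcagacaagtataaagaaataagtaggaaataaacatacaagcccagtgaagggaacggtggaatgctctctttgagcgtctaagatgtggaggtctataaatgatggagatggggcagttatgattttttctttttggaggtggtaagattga
Mybpc3 region 1, chr2:90958533-90958733, plus strand: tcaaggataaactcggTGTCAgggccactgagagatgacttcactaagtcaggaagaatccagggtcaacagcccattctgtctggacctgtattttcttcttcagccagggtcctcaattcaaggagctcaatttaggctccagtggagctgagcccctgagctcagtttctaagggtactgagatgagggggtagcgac

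Ankrd1 (chr19:36186455-36194334, minus strand) carried the most shared regions per kb of window of the 9 genes. Its product, also known as CARP, binds titin in the I-band and is also found in the nucleus. It had 5 shared regions, and 38 of 22206 protein-coding genes (0.171%) had as many or more within 50 kb. Regions were counted separately even where their S4 peaks lay almost end to end, as some did here. Region 1 lay 10.1 kb upstream of the start, with a score of 556 in S1 and 238 in S4. Region 2 covered the start itself, with its midpoint 0.107 kb upstream, and scored 319 in S1 and 1349.8 in S4. The sequence shown above lies just upstream of the Ankrd1 start, with a TGACA core 158 bp upstream of the start.

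Inside Ankrd1, region 3 lay in intron 4 and scored 175 in S1 and 918 in S4. Region 4 lay in intron 8 and scored 148 in S1 and 759 in S4. Region 5 lay 8.82 kb downstream of the start, just past the end of the gene, and had the highest scores near any of the 9 genes, 877 in S1 and 2252 in S4 (chr19:36184024-36187649 in S4). S4 was higher in the 4 regions at or past the start of Ankrd1, by 2.57-fold to 5.23-fold, and lower in the upstream one, at 0.427 of the S1 score. The S4 peaks of these 4 regions were between 1613 and 3626 bp wide, against 555 to 1521 bp in S1. The S4 peaks of regions 4, 3 and 2 lay almost end to end (chr19:36188983-36190595, chr19:36190634-36193149 and chr19:36193176-36195110). These regions are therefore not independent of each other. An S1 peak without a partner lay 47.9 kb upstream (score 233).

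Together the peaks covered 82.3% of the 7.88 kb Ankrd1 body in S4 and 20.7% in S1. Among 16451 protein-coding genes of at least 5 kb, 5 had at least 50% of the body under S4 peaks (0.0304%), Ankrd1 among them, and 2 had so much under S1 peaks (0.0122%). Without a limit on length, 0.0856% of genes reached 50% in S1 and 0.248% in S4. This measure was chosen after the data were seen.

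**Figure D1:**
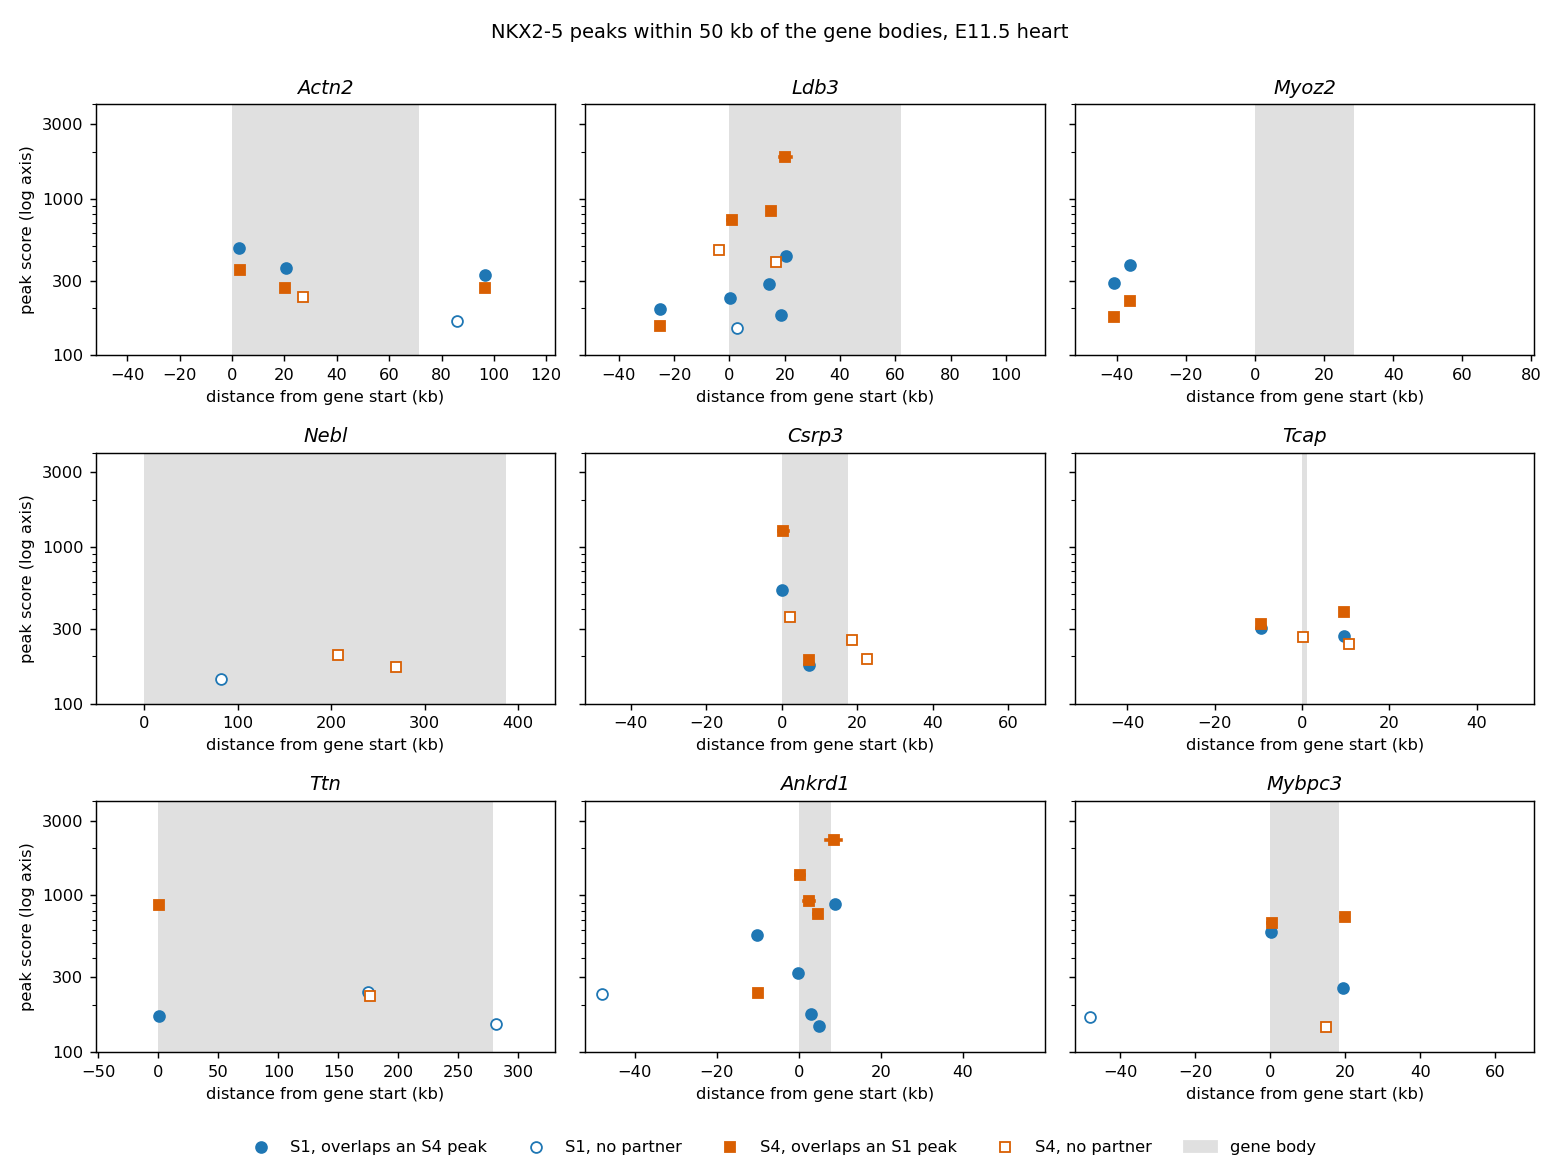
Peak scores (log axis) against the distance of the peak midpoint from the start of each gene in kb, in gene direction, with S1 as blue circles and S4 as orange squares; filled symbols overlap a peak of the other library, open symbols do not, short bars show the peak width and grey the gene body. Each shared S4 peak over the body of Ankrd1 and Ldb3 stands above its S1 partner, and at Actn2 and Myoz2 the S1 peaks stand above their S4 partners.

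Ldb3 (chr14:35339885-35401867, minus strand), which encodes the Z-disc PDZ and LIM domain protein ZASP or Cypher, had 6 peaks in each library and 4 shared regions, a number reached by 77 protein-coding genes (0.347%). Region 1 lay 25.02 kb upstream of Ldb3 in intergenic sequence, nearer to the gene Opn4, and was weak in both libraries, with 197 in S1 and 155 in S4. Region 2 lay at the Ldb3 start (midpoint 0.124 kb downstream) and scored 231 in S1 and 730.05 in S4. Regions 3 and 4 lay in intron 5, at 14.4 kb and 20.4 kb from the start. Region 3 scored 285 in S1 and 833 in S4. Region 4 scored 431 in S1 and 1841 in S4, where the peak (chr14:35379452-35383665) was 4214 bp wide and spanned 2 S1 peaks, the weaker of which scored 179.6. The intronic and promoter regions of Ldb3 were 2.93-fold to 4.27-fold higher in S4, and the upstream one was lower, at 0.786 of the S1 score.

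Further Ldb3 peaks had no partner. In S4 they lay 3.56 kb upstream of the start, in an intron of Opn4 (score 473), and 16.7 kb downstream in intron 5 (394). In S1 a peak of score 149.5 lay in intron 2, with 479 bp between its end and the start of the nearest S4 peak. The peaks covered 15.3% of the Ldb3 body in S4 and 5.93% in S1.

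Actn2 (chr13:12361693-12433027, minus strand) had 3 shared regions, and S1 was the higher library in all of them. Regions 1 and 2 lay in intron 1, at 2.84 kb and 20.4 kb from the start. Region 1 scored 484 in S1 and 350.1 in S4, and region 2 scored 362 in S1 and 268 in S4. Region 3 lay 96.7 kb from the start, downstream of Actn2 in an intron of Mtr, and scored 324 in S1 and 268 in S4. The ratios of S4 to S1 were between 0.724 and 0.828. As many shared regions or more were found at 0.928% of protein-coding genes. No peak of either list lay within 1 kb of the Actn2 start. Without a partner were an S4 peak in intron 1 at 26.9 kb (score 235) and an S1 peak in an intron of Mtr at 85.9 kb (score 165).

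Myoz2 (chr3:122709124-122737908, minus strand) encodes calsarcin-1, which ties calcineurin to alpha-actinin. It had no peak over its body in either library, and its 2 shared regions lay upstream. Region 1, at 40.8 kb, scored 288 in S1 and 176 in S4. Region 2, at 36.2 kb, scored 375 in S1 and 222 in S4. As at Actn2, both were lower in S4, with ratios of 0.612 and 0.592. The nearest gene body to both was that of Synpo2, itself a gene of a Z-disc protein, while the nearest protein-coding start was that of Myoz2.

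Csrp3 (chr7:56085768-56103400, minus strand) encodes the muscle LIM protein. Region 1 lay over the Csrp3 start, with its midpoint 0.1 kb downstream, and scored 534 in S1 and 1259 in S4. Region 2 lay in intron 1 at 7.33 kb and scored 176 in S1 and 189 in S4, a near-equal pair. S4 alone had 3 more peaks, at 2.32 kb in intron 1 (score 359.5) and, past the end of the gene, at 18.7 kb and 22.7 kb from the start (253 and 192). The body of Csrp3 was covered to 19.7% in S4 and 7.22% in S1.

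Tcap (chr11:98245125-98246267, plus strand) encodes telethonin, which caps the end of titin at the Z-disc. The genes Stard3, Pnmt and Pgap3 lie within the same window, and peaks counted at Tcap can be nearer to them. Region 1 lay 9.34 kb upstream of the Tcap start in an intron of Stard3 and scored 302 in S1 and 324 in S4. Its sequence holds AAGTG at -1.5 bp and TGACA at 9.5 bp from the midpoint. Region 2 lay 9.63 kb downstream in an intron of Pgap3 and scored 269 in S1 and 383 in S4. At the start of Tcap itself a peak was listed in S4 alone (score 267), with its midpoint in exon 1, 0.124 kb from the start. A further S4 peak lay 10.7 kb downstream (score 239.8).

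Ttn (chr2:76542037-76820604, minus strand) held a single shared region in a window of 379 kb. It lay at the start, with the midpoint in intron 1 at 0.619 kb, and scored 171 in S1 and 872 in S4, a ratio of 5.11. The S4 peak was 1411 bp wide and the S1 peak 588 bp. Deep in the gene, an S1 peak in intron 222 (score 243, 175 kb from the start) and an S4 peak in intron 223 (score 227, 176 kb) lay side by side without overlap, with the S1 peak starting 243 bp past the end of the S4 peak. A last S1 peak lay past the end of the gene (score 151). Peaks covered 0.677% of the Ttn body in S4 and 0.419% in S1.

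Nebl (chr2:17265536-17653091, minus strand) encodes nebulette, the nebulin relative of cardiac Z-discs, and from an upstream start the LIM protein LASP2. Its body of 388 kb held 1 S1 peak (score 144) and 2 S4 peaks (170.3 and 203), and none overlapped. The S4 peak of score 170.3 lay 268.9 kb from the gene start but over the start of the transcript Nebl-010, with its midpoint 0.202 kb from it. The other S4 peak was 4.51 kb inside Nebl-004, and the S1 peak was 81.7 kb from the nearest start, that of Nebl-001. The nearest peak of the other list was at least 124901 bp away from each of the 3.

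Mybpc3 (chr2:90958301-90976673, plus strand) differs from the other genes in role, since cardiac myosin-binding protein C sits on the thick filament and binds both myosin and titin. Region 1 lay over its start, with the midpoint in intron 1 at 0.332 kb. It scored 583 in S1 and 665 in S4, the closest pair among the promoters. Region 2 lay 19.5 kb from the start, past the end of Mybpc3 and in an exon of Madd, and scored 256 in S1 and 729.9 in S4. An S4 peak of score 145 lay in exon 26, and an S1 peak of score 166.5 lay 47.9 kb upstream, at the start of Slc39a13, both without a partner.

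**Figure D2:**
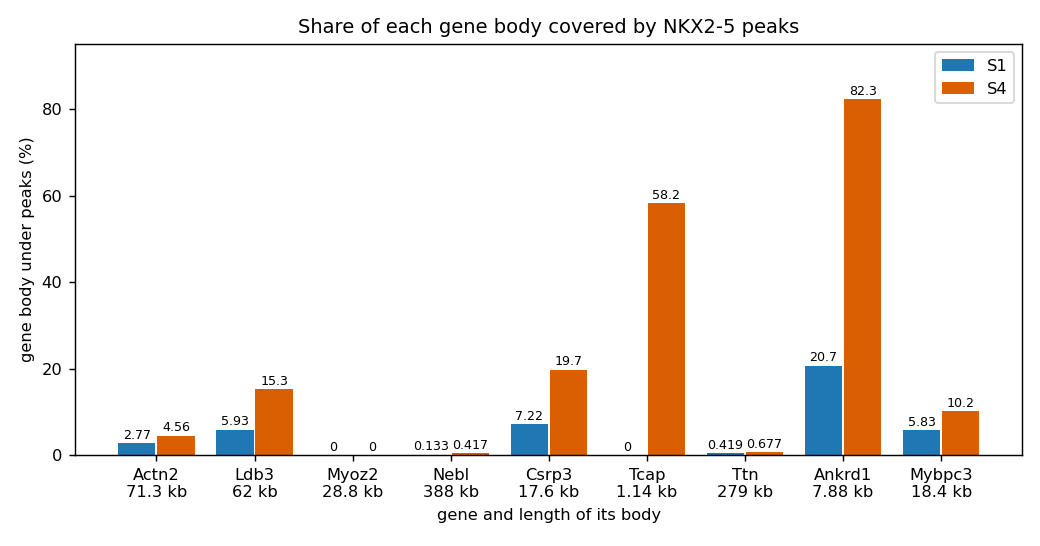
Share of each gene body in percent that lay under S1 peaks (blue) and S4 peaks (orange), with the length of the body under the name. Ankrd1 reached 82.3% in S4 and 20.7% in S1, Tcap, a gene of 1.14 kb, reached 58.2% in S4 alone, and Myoz2 had no peak over its body in either library.

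A start within 1 kb of a shared region was found at 5 of the 9 genes, Ldb3, Csrp3, Ttn, Ankrd1 and Mybpc3, against 1.93% of all protein-coding genes. Of the 21 regions 5 were placed at promoters (17.1% of all shared regions), 1 in an exon (3.06%), 10 in introns (40.7%) and 5 in intergenic sequence (39.1%). A promoter limit of 5 kb in place of 1 kb raised the promoter count to 12 (30.4% of all shared regions). The nearest gene body was that of the named gene in 14 of the 21, and the nearest protein-coding start was its own in 18. Counted as peaks per Mb of window, the 9 genes held 16.4 in S1 and 18.6 in S4, against 2.22 and 2.74 over all protein-coding windows. The long windows of Ttn and Nebl lower this value, and the other 7 genes together held 27.6 in S1 and 32.0 in S4.

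In S1, 22 of the 29 peaks overlapped an S4 peak, or 75.9% (95% Clopper-Pearson interval, 56.5% to 89.7%), against 58.9% of the whole list. In S4, 21 of the 33 peaks had a partner, or 63.6% (45.1% to 79.6%), against 47% of the whole list, a background that lies inside the interval in S4 and in S1. The intervals cover counting error only, and peaks of 1 locus are not independent. Partners depended on the rule, since requiring 50% of each peak to be covered left 48.3% in S1 (52.3% of the whole list) and 42.4% in S4 (42.5%). Midpoints within 150 bp left 37.9% in S1 (45.2%) and 33.3% in S4 (36.7%), so under these rules the shares at the genes were not above those of the lists. Peaks without a partner had median scores of 165 in S1 and 237 in S4, against 295 and 665 for peaks with one. The whole lists were divided the same way, with 171 against 279 in S1 and 183 against 315 in S4. None of the 7 unpaired S1 peaks scored above 243 and none of the 12 unpaired S4 peaks above 473.

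The median score of all peaks at the 9 genes was 256 in S1 (range 144 to 877) and 324 in S4 (145 to 2252). Over the whole lists it was 212 in S1 and 223 in S4. In S1, 18 of 29 lay above the median of their list, and in S4, 25 of 33 did. Widths also differed between the libraries, with a median of 772 bp in S1 and 1081 bp in S4, against 625 and 783 bp over the lists. Of the S4 peaks at the 9 genes 6 were at least 2000 bp wide, where 1.16% of the S4 list was, and none of the 29 S1 peaks was (0.407% of the S1 list). The 6 wide S4 peaks all lay at Ldb3, Ankrd1 and Csrp3.

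Between the libraries, S4 was higher in 14 of 21 regions, where 60.6% of all shared regions were, and the log2 of the S4 score over the S1 score had a median of 0.51 against 0.16 over all shared regions. By position, S4 was higher in all 5 promoter regions (64.7% of all shared promoter regions), the 1 exonic region (62.8%), 7 of 10 intronic (58.6%) and 1 of 5 intergenic ones (60.7%). The direction of the overall median rests on the pairing rule, and a minimum of 50% coverage of each peak by its partner, which drops pairs of unequal width, turned it to -0.087 (0.11 over all regions shared by that rule). Regions within 10 kb of the genes gave 1.44. Of the 13 regions inside the gene they were counted at or within 1 kb of it, 11 were higher in S4, with a median log2 ratio of 1.55. Most of the 11 were regions of Ankrd1 (2 to 5) and Ldb3 (2 to 4), and those of Ankrd1 are neighbours. Region 2 of Csrp3 and region 1 of Mybpc3 were near equal (log2 ratios of 0.11 and 0.19). Of the 8 regions farther out, 3 were higher in S4, with a median log2 ratio of -0.31. The exceptions inside the gene were the 2 intronic regions of Actn2. Divided by any protein-coding gene within 1 kb, 14 of 18 regions in or at a gene were higher in S4 (median log2 ratio 1.30) and 0 of 3 outside (median -0.76). Over all shared regions this division by any gene gave 60.2% in or at a gene and 61.1% outside, with a median log2 ratio of 0.16 on both sides. Both divisions were made after the scores were seen.

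An S4 score over 4 times the S1 score was rare, at 21 of 2546 shared regions (0.825%). Of these, 5 lay at the genes described here, namely region 4 of Ldb3, the promoter region of Ttn, and regions 2, 3 and 4 of Ankrd1. The S4 peaks of these Ankrd1 regions lie almost end to end, so the 5 are not separate cases. The ratio of Ldb3 region 4 sets 1 S4 peak that spans 2 S1 peaks against the higher-scoring of the 2. The share of S1 peaks scoring lower was 9.07% for Ankrd1 region 4, 29.6% for Ttn and 33.2% for Ankrd1 region 3. It was 74.0% for Ankrd1 region 2 and 84.4% for Ldb3 region 4, so low S1 scores enter some of the 5 ratios. Of the 21 shared regions at the genes, the S4 peak was the wider one in 18, against 79.1% of all shared regions. A part of peak width or of depth in these score differences was not tested.

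**Figure D3:**
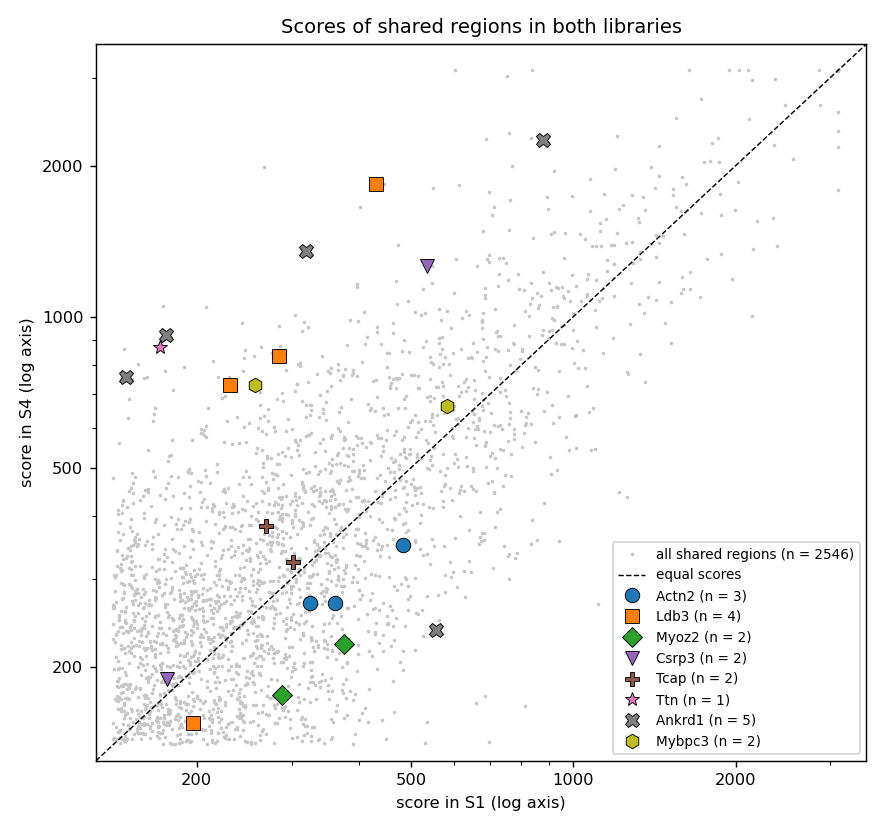
Score in S4 against score in S1 (log axes) for the 21 shared regions at the genes, with a symbol per gene, over all 2546 shared regions in grey and the line of equal scores. Ankrd1, Ldb3 and Ttn hold the regions farthest above the line, while all regions of Actn2 and Myoz2 and the upstream regions of Ankrd1 and Ldb3 lie under it.

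In windows of 100 bp on either side of the midpoint, 14 of the 21 shared regions held AAGTG, where 64% of all shared regions and 39.3% of windows 2 kb away held it. The MEIS core TGACA lay in 13 of 21 (64.6% of all shared regions, and 40.1% of those flanking windows). Either core was found in 17 of 21 (84.6% of all), so the shares at the genes were near those of the whole set. The longer NKX2-5 core TNAAGTG lay in 4 regions (32.3%), namely region 2 of Actn2, region 1 of Myoz2, the upstream region of Ldb3 and the upstream region of Tcap. The spaced pair GTGNTGACA, in which TGACA is part of the match, lay in 2 regions (9.54%), at the start and in intron 5 of Ldb3. TNAAGTG contains AAGTG. All motifs were searched as exact letters on both strands, and a match is not a bound site. In windows of 25 bp on each side 3 regions held AAGTG (22.1% of all shared regions) and 1 held TGACA (25.1%).

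Motifs of other cardiac factors were counted in the same windows. The GATA motif AGATAA lay in 4 regions (19.1% of all shared regions and 11.4% of flanking windows) and the TEAD motif CATTCC in 4 (15.1% and 10.4%). The E-box CAGCTG lay in 2 (16% and 8.99%) and the T-box motif AGGTGT in 1 (13.7% and 11.7%). The consensus of MEF2 (2.12%) and the CArG box of SRF (1.06%) were in none of the 21 windows. Of the 4 windows without AAGTG or TGACA, 2 were regions 4 and 5 of Ankrd1, 1 was the Csrp3 promoter and 1 was region 4 of Ldb3. The windows were centred on midpoints and not on peak summits. Elsewhere in its shared stretch the Csrp3 promoter held 3 AAGTG and 5 TGACA. The stretch of Ldb3 region 4 held 2 AAGTG and 3 TGACA, and that of Ankrd1 region 4 held 1 of each. Region 5 of Ankrd1, with the highest scores at the 9 genes, held 3 TGACA and no AAGTG in its shared stretch of 1521 bp. In the Ttn sequence above, AAGTG lay 677 bp and TGACA 688 bp downstream of the start.

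**Figure D4:**
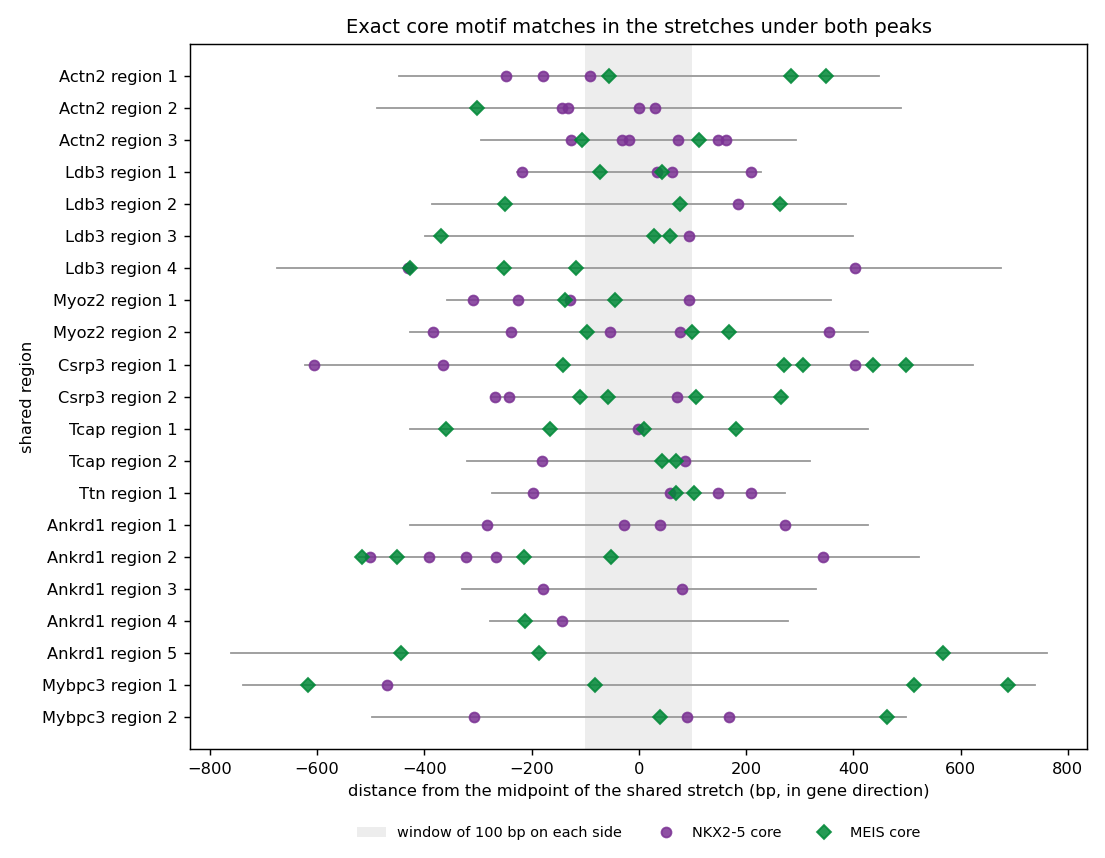
Positions of exact NKX2-5 core (purple circles) and MEIS core (green diamonds) matches in bp from the midpoint of each of the 21 shared stretches (grey lines), in gene direction, with the window of 100 bp on each side shaded. In 17 regions at least 1 core lies inside the shaded window, and region 5 of Ankrd1 has only MEIS cores.

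A list of 47 other genes of Z-disc, titin-binding, M-band and myosin-binding proteins was examined for comparison. It was chosen by role with earlier results of these data known. Of these, 22 had a shared region within 50 kb (15.7% of all protein-coding genes did), 6 had one at their own start (1.93%), and 12 had no peak in either library (60.8%). Their windows held 4.67 shared regions per Mb (4.42 without Synpo2, whose window holds both Myoz2 regions), against 11.8 for the 9 genes and 1.23 over all protein-coding windows. Ranked by the lower of both scores, the highest region lay near Myom1, the gene of the M-band protein myomesin (1721 in S1 and 1094 in S4), in an intron of Myl12b at -39.9 kb from the start. Next came a region at -17.6 kb from Mybpc1, a myosin-binding protein C gene of skeletal muscle (1009.8 and 1149). Pdlim7, of the same PDZ and LIM family as Ldb3, scored 762 and 803, and the muscle gene Smpx scored 579 and 832 at -1.06 kb from its start. The regions counted at Mybpc2 (680.2 and 1484) and Nexn (513 and 525) were nearest to other genes, Josd2 and Dnajb4.

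Just inside the limit of 50 kb lay the single S1 peaks of Ankrd1 (47.9 kb, score 233) and Mybpc3 (47.9 kb, score 166.5). Just outside lay a shared pair at 53.1 kb and 53.8 kb from Tcap, scoring 166.45 in S1 and 640.3 in S4, and a shared pair at 57.0 kb and 57.1 kb from Mybpc3, with 165 in S4 and 177 in S1.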

How the data were processed

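NKX2-5 ChIP-seq libraries of E11.5 mouse hearts were sequenced on a Genome Analyzer IIx, aligned to mm9 with Bowtie and called with MACS 1.4, per the study's methods and processing notes. The settings and the use of the Input library as control were not given in the sources used here. Peak lists were deposited for each ChIP library separately, not pooled. The deposited score carries no header and was taken to be 10 times the negative log10 of the caller's p-value, the form in which MACS 1.4 writes it. It is not scaled between libraries. The other deposited columns used are start and end.

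The gene list, its distance rule and the measures were chosen with earlier results of these data known. All coordinates fitted the chromosomes of NCBIM37, which is mm9, and are printed 1-based. Genes and starts came from GENCODE M1, and exon and intron numbers from the transcript with the longest coding sequence. Overlapping peaks were merged into regions, each placed by the midpoint of the stretch under the pair of peaks with the best lower score. A midpoint within 1 kb of any transcript start was a promoter. All 9 genes were described, and of the 47 related genes the 6 with the highest lower score. Shares of peaks carry Clopper-Pearson intervals (confidence 0.95). The alternatives were distances of 10 kb and 100 kb, a score of at least 200, nearest genes only, other overlap rules, a promoter limit of 5 kb and motif windows of 25 bp and 150 bp. Overlap and window counts were tested on simulated lists. Python 3.11.15, numpy 2.4.6, pandas 2.3.3, scipy 1.17.1 and matplotlib 3.10.9 were used.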

Additional observations from a re-analysis of the deposited data

How the results depend on the processing

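Of 120 alternative values 85 stayed within the limits set for them, 34 moved and 1 reversed. No paired analysis was possible because both ChIP libraries belong to 1 condition. Each library alone gave 29 to 33 peaks against the mean of 31. A score of at least 200 left 18 S1 peaks and raised the median scores to 322 in S1 and 383 in S4. It lowered the density to 10.2 and 15.2 peaks per Mb, as fewer peaks enter. Of the 15 shared regions left by this limit, 9 held AAGTG and 2 held TNAAGTG, against 14 and 4 of 21 in the main setting. A distance of 10 kb gave densities of 19.9 in S1 and 26.6 in S4 and a median log2 score ratio of 1.44. It left 16 shared regions, of which 9 held AAGTG and 2 held TNAAGTG (64% and 32.3% of all shared regions). A distance of 100 kb gave densities of 12.3 and 14.2, a median S4 score of 268 and a log2 ratio of 0.35. Requiring 50% of each peak to be covered gave partner shares of 48.3% in S1 and 42.4% in S4 and reversed the log2 ratio to -0.087. Midpoints within 150 bp gave 37.9%, 33.3% and 11 shared regions. A promoter limit of 5 kb gave 12 promoter regions. Motif windows of 25 bp on each side gave, of 21 regions, 3 with AAGTG (22.1% of all shared regions) and 1 with TGACA (25.1%). They gave 1 with TNAAGTG and 0 with GTGNTGACA, for which the share over all shared regions at this width is not given here. The causes of the moves were not tested. The depth of the libraries is unknown and limits every score, width and unpaired peak.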
